A study of Homo sapiens with 12 samples.

Results

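Mitochondria carry a small circular genome (mtDNA) whose expression depends on proteins encoded in the nucleus. The transcripts of 10 such nuclear genes were examined in diffuse large B cell lymphoma (DLBCL) lines with acquired resistance to venetoclax, an inhibitor of the anti-apoptotic protein BCL2. The genes were chosen by symbol for their known role, with earlier results of these data known, from 60675 gene identifiers per library. All 10 passed the filter on low counts in both lines. Of these, PPARGC1B, NRF1 and ESRRA act on transcription in the nucleus. TFAM, TFB2M and POLRMT form the mitochondrial transcription machinery, and TFB1M methylates the small mitochondrial rRNA. TWNK and POLG replicate mtDNA, and LRPPRC binds mitochondrial mRNAs.

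RNA was sequenced from 12 libraries in 4 groups of 3. SUDHL6-parental (CE-7, CE-8 and CE-9) and SUDHL16-parental (CE-25, CE-26 and CE-27) are established human DLBCL lines obtained from a repository. SUDHL6-resistant (CE-10, CE-11 and CE-12) and SUDHL16-resistant (CE-28, CE-29 and CE-30) were derived from them by exposure to rising venetoclax (ABT-199) until the cells grew at 10 times the original IC50. One resistant derivative was made of each line, and no source states that the 3 libraries of a group came from separate cultures, so the p-values measure the spread between these libraries, which may be technical. SUDHL6 libraries were made with a NEBNext Ultra II kit and run on a HiSeq, and SUDHL16 libraries with an Illumina stranded total RNA kit and run on a NovaSeq, so that line and kit cannot be told apart and levels were not compared between lines.

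Total counts were 33992784 to 40885665 per library in SUDHL6 and 4131927 to 22068221 in SUDHL16, the lowest being the parental library CE-26. CE-26 stood apart before any comparison. It had 31.9% of its counts on identifiers that are not in GENCODE 44, against 1.61% to 5.06% in the other SUDHL16 libraries, and 2.62% of its counts on mtDNA genes, against 0.752% to 1.14%. Values of the SUDHL16 comparison are therefore also given without it. All 8 B cell markers were above 1 CPM (reads scaled to a library of 1000000) on average in every group. The 5 fibroblast markers summed to 19.8 to 49.2 CPM in SUDHL16-parental libraries and to 0.134 to 0.518 CPM in SUDHL16-resistant ones. By group mean, 4 of the 5 were at 1 CPM or more in SUDHL16-parental libraries and 0 of the 5 in SUDHL16-resistant ones. In the parental group decorin (DCN) was the highest at a mean of 21.7 CPM, and COL1A1 was at 0 CPM. T cell markers summed to 18.5 to 28.6 CPM in parental and 23.3 to 28.5 CPM in resistant libraries. TRAC was the highest of them (means 17.7 and 13.6 CPM) and CD3D the lowest (0.166 and 0 CPM). Across SUDHL16-parental libraries myeloid markers summed to 0.220 to 13.4 CPM and epithelial markers to 0 to 12.7 CPM, so the high sums were not shared by the whole group. Both summed to at most 1.19 CPM in any other group. The part of other cells in the SUDHL16 results was not tested.

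As background, PPARGC1B (PGC-1 beta) is a coactivator that has no DNA-binding domain of its own and works through factors such as NRF1 and ESRRA (the orphan receptor ERR alpha). NRF1 and ERR alpha bind the promoters of many nuclear genes for respiratory chain subunits and for the machinery that expresses mtDNA. TFAM bends and packages mtDNA and, with TFB2M and the RNA polymerase POLRMT, starts its transcription. The transcripts run over nearly the whole circle and are cut into mRNAs, rRNAs and tRNAs. TFB1M, related to TFB2M, methylates the small mitochondrial rRNA. The helicase Twinkle (TWNK) unwinds mtDNA ahead of POLG, the catalytic subunit of its DNA polymerase, and LRPPRC, with its partner SLIRP, stabilises mitochondrial mRNAs.

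The NRF1 recognition motif ties several of the genes to each other, so the promoters that hold it are shown. RefSeq promoters, from 250 bases before to 50 bases after the transcription start, were at hand for 8 of the 10 genes (not for NRF1 and TWNK), on GRCh38.p14. The NRF1 motif, spelled GCGCA, then any base, then GCGC, was searched on both strands. It occurred in 4 of these 8 promoters, TFB1M, TFAM, ESRRA and POLRMT, and in 5.78% of all 35116 promoters in the set. The stretches below give the 150 bases before the start, 5′ to 3′ on the gene's strand, with the motif in capitals. They are chr6:155314485-155314634 on the minus strand, chr10:58385260-58385409 on the plus strand, chr11:64305374-64305523 on the plus strand and chr19:633538-633687 on the minus strand.
TFB1M: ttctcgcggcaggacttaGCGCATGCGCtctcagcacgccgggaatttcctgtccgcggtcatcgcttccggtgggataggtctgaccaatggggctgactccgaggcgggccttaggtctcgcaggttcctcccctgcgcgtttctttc
TFAM: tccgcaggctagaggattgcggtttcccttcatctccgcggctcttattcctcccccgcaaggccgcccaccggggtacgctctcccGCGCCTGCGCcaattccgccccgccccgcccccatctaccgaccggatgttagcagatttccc
ESRRA: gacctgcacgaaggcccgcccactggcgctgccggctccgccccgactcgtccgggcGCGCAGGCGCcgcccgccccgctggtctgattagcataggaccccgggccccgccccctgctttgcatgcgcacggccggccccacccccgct
POLRMT: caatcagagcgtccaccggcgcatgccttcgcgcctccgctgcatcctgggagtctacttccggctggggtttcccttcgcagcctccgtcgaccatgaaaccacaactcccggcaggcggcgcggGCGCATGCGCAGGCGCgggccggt

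In TFB1M the match began 132 bases before the start, in ESRRA 93 and in TFAM 63. POLRMT held 2 overlapping matches, beginning 24 and 18 bases before the start. The ETS motif CCGGAAG, which NRF2/GABP binds, was found in TFB1M and POLRMT and in 10.3% of all promoters. The ERR element TCAAGGTCA was in none of the 8, and 0.353% of all promoters hold it. These are matches of letters and not measured binding.

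The question of the first comparison is whether resistant SUDHL6 cells differ from their parental line in these transcripts. Differences were small and mostly downward. By edgeR's quasi-likelihood test, 6 of the 10 genes passed an adjusted p of 0.05, 5 lower and 1 higher, beside 37.3% of the 16662 genes tested in this line (19.7% lower and 17.7% higher). None also reached 1.5-fold, the size needed for a gene to be called, against 8.96% of all genes, and none was called by DESeq2 or limma voom either. At an unadjusted p under 0.05 there were 6 of 10, beside 45.2% of all genes. The median log2 fold change of the 10 was −0.12, against 0.00 over all genes tested. The libraries of the groups did not overlap for 7 of the 10, beside 47.9% of all genes.

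The largest differences were in the replication genes. POLG read 102, 105 and 101 CPM in parental libraries and 85.3, 87.2 and 88.0 CPM in resistant ones. Every resistant library lay below every parental one, and the fitted difference was a log2 fold change of −0.24 (SE 0.027, adjusted p = 1.48e-05), or 15.6% less. For this fall the group means were 103 ± 2.12 and 86.8 ± 1.38 CPM (SD, 3 libraries each). TWNK read 52.7, 53.7 and 56.3 CPM in parental libraries and 45, 45.7 and 47.4 CPM in resistant ones. Again the groups did not overlap, with a log2 fold change of −0.24 (SE 0.036, adjusted p = 2.10e-04). Both replicative enzymes of mtDNA were thus lower by about the same factor.

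In the transcription machinery, TFAM fell and its partners POLRMT and TFB2M did not pass the test. TFAM read 75.4, 78.2 and 72.2 CPM in parental libraries and 67.2, 65.7 and 65.7 CPM in resistant ones. The groups did not overlap, and the log2 fold change was −0.18 (SE 0.033, adjusted p = 6.69e-04). POLRMT, the polymerase itself, had means of 60.3 ± 2.59 and 60.5 ± 1.98 CPM, with a log2 fold change of 0.00 and a 95% interval from −0.08 to 0.08. TFB2M, the other initiation factor, had a log2 fold change of −0.02, with an interval from −0.17 to 0.13. TFB1M, the rRNA methyltransferase, had −0.13, with an interval from −0.28 to 0.03 and an adjusted p of 0.187. Of the 4 genes whose promoters hold the NRF1 motif, TFAM and ESRRA were therefore lower in SUDHL6, and TFB1M and POLRMT did not pass.

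Among the nuclear regulators, the differences were near the limit of the test. PPARGC1B had means of 29.4 ± 1.22 and 26.5 ± 0.650 CPM, with a log2 fold change of −0.15 (adjusted p = 0.0407). ESRRA had 58.4 ± 1.20 and 55.0 ± 1.33 CPM, with −0.09 (adjusted p = 0.0485). Neither pass is firm. PPARGC1B passed when CE-7 was left out but not without CE-8, CE-9, CE-10, CE-11 or CE-12 (adjusted p = 0.0575 to 0.152), and ESRRA passed without CE-12 but not without any of the other 5 libraries (0.0523 to 0.171). NRF1 itself read 28.6, 29.9 and 29.3 CPM in parental libraries and 27.6, 28 and 25.4 CPM in resistant ones, a log2 fold change of −0.11 that did not pass (adjusted p = 0.119).

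LRPPRC was the member that rose. It read 334, 337 and 323 CPM in parental libraries and 345, 357 and 350 CPM in resistant ones. The groups did not overlap, and the increase was 5.81%, a log2 fold change of 0.08 (SE 0.022, adjusted p = 0.0104). POLG, TWNK, TFAM and LRPPRC still passed when any library of SUDHL6 was left out, but not in 1 fit of all 12 libraries (adjusted p of 1).

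**Figure D1:**
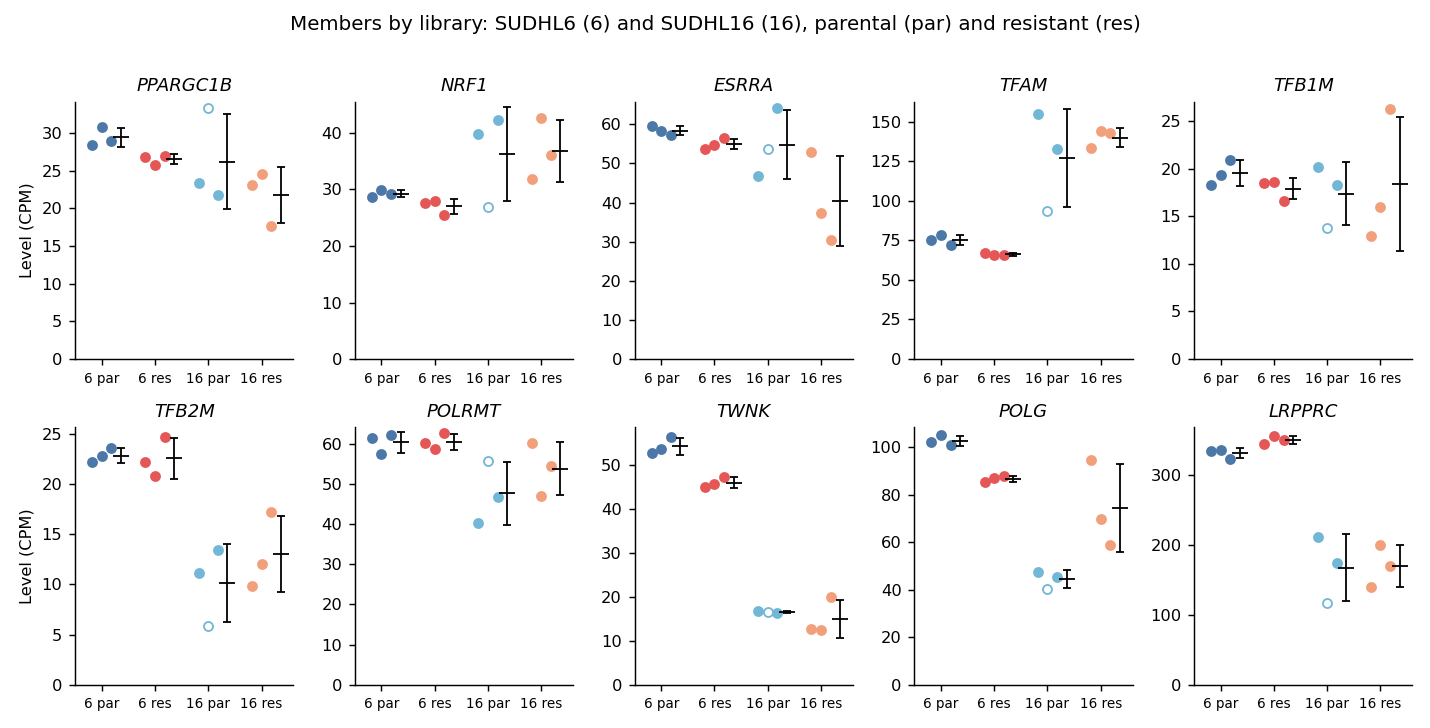
CPM of each gene (vertical axis, from 0) in each library of the 4 groups on the horizontal axis, with the mean and SD in black beside the 3 points of a group; CE-26 is the open circle. In SUDHL6 the resistant POLG, TWNK and TFAM points lie below all parental points, and in SUDHL16 only POLG has groups that do not overlap.

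The second comparison asks the same of SUDHL16. No member passed the test there with edgeR (5.30% of the 15708 genes tested passed, all of them also called) and 1, POLG, had an unadjusted p under 0.05 (19.1% of all genes). DESeq2 passed none (11.3% of all genes passed) and limma voom passed POLG (16.9% of all genes passed). Without CE-26 edgeR again passed none of the 10, beside 10.0% of 16280 genes, with 1 of 10, POLG, at an unadjusted p under 0.05 (23.3% of all genes). The intervals were wide. The biological coefficient of variation, the spread between libraries beyond counting, was 0.468 in SUDHL16 and 0.339 without CE-26, against 0.0516 in SUDHL6.

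POLG read 47.6, 40.3 and 45.6 CPM in parental libraries and 94.8, 69.9 and 59.0 CPM in resistant ones. All 3 resistant libraries were above all parental ones, the opposite order to SUDHL6, and it was the single member of the 10 whose SUDHL16 groups did not overlap (26.6% of all genes tested had groups that did not). The log2 fold change was 0.74 (SE 0.24, adjusted p = 0.139), with an interval from 0.18 to 1.30 before adjustment. Without CE-26 it was 0.69 (adjusted p = 0.146). POLG did pass in a fit of all 12 libraries (0.76, adjusted p = 0.0130), where 15.2% of all genes passed. It also passed with limma voom and sample weights (0.69, adjusted p = 0.0383), where 16.9% of all genes passed. Over all alternatives tried its adjusted p ran from 0.0130 to 0.330.

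The other 9 members had log2 fold changes in SUDHL16 from −0.45 to 0.34. ESRRA was at the lower end. It read 46.7, 53.7 and 64.1 CPM in parental libraries and 53.0, 37.4 and 30.5 CPM in resistant ones, and the groups overlapped (adjusted p = 0.423, and 0.414 without CE-26). TFB2M was at the upper end, at 10.2 ± 3.90 and 13 ± 3.77 CPM, and moved to 0.09 without CE-26. PPARGC1B moved from −0.25 to −0.04 when CE-26 was left out, since CE-26 held its highest value, 33.4 CPM against 17.6 to 24.6 CPM in the other 5 libraries.

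For the members not yet named in this line, the SUDHL16 data allow differences in either direction. TFAM read 155, 93.7 and 133 CPM in parental libraries and 133, 144 and 143 CPM in resistant ones, with CE-26 the lowest. Its log2 fold change was 0.14, with an interval from −0.45 to 0.72, and −0.03 without CE-26. POLRMT had 0.18 (−0.34 to 0.69), and without CE-26 its groups no longer overlapped at 0.31 (adjusted p = 0.458), beside 42.2% of all genes without overlap then. TFB1M had 0.07, NRF1 0.01, LRPPRC 0.02 and TWNK −0.13, the last at −0.12 without CE-26. LRPPRC, NRF1, TFAM and TFB1M changed sign when CE-26 was left out, to −0.17, −0.15, −0.03 and −0.05, so no direction can be given for them.

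**Figure D2:**
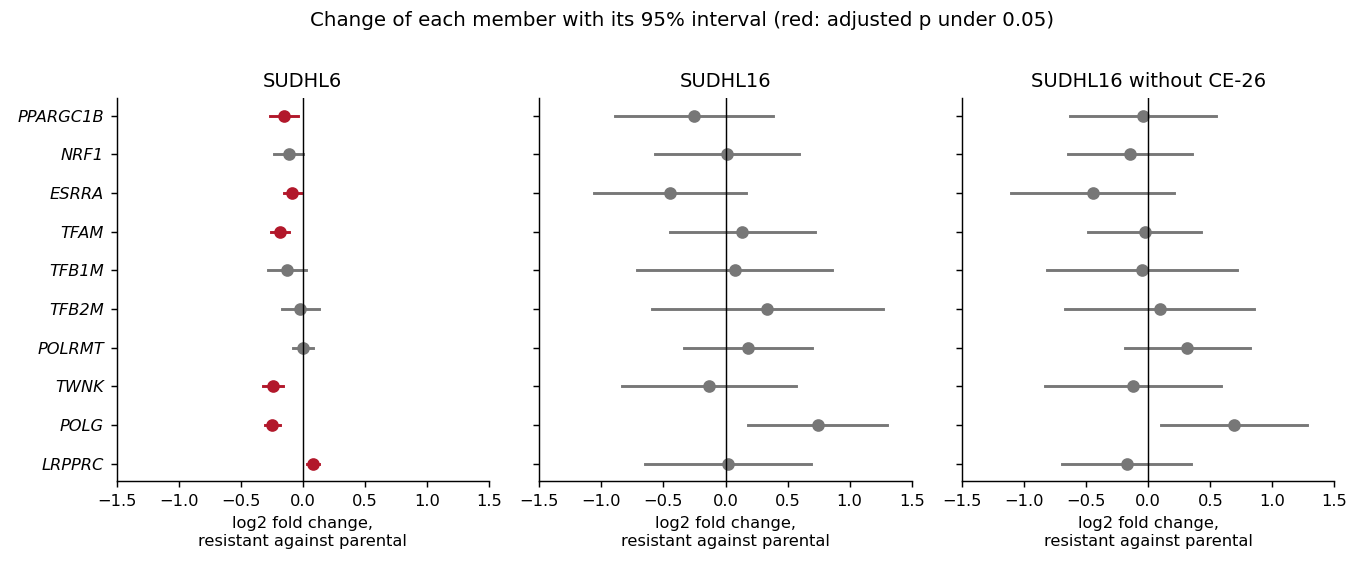
Log2 fold change of each gene, resistant against parental (horizontal axis), with its 95% interval, in SUDHL6, in SUDHL16 and in SUDHL16 without CE-26; red marks an adjusted p under 0.05. The SUDHL6 intervals are narrow and mostly left of 0, and in SUDHL16 only the POLG interval lies to one side of 0, at 0.18 to 1.30.

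An interaction term, fitted to the 12 libraries together, asked whether lines differed in their change. It used a single spread per gene for both lines, although the biological coefficient of variation was 0.468 in SUDHL16 and 0.0516 in SUDHL6. The part of this in the p-values was not tested. POLG was the 1 member of the 10 that passed, beside 7.16% of 19621 genes. Its change in SUDHL16 minus its change in SUDHL6 was 1.01 on the log2 scale (SE 0.24, adjusted p = 0.0275), and 0.88 without CE-26 (adjusted p = 0.0148, beside 14.0% of all genes). Leaving out CE-25, CE-27 or CE-30 also kept the call, while leaving out any of the other 8 libraries (CE-7 to CE-12, CE-28 or CE-29) raised the adjusted p to 0.0559 to 0.0876, with the difference between 0.85 and 1.02 in 7 of these and 1.07 without CE-29. For the other 9 members the difference ran from −0.33 for ESRRA to 0.34 for TFAM and TFB2M, and none passed. Kit and instrument differ with the line, so this difference and theirs cannot be told apart.

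POLG lies at chr15:89305198-89334861 on the minus strand (GRCh38, GENCODE 44), and its canonical transcript has 23 exons over 4462 bases. In SUDHL16 most of its neighbours were higher too. Up to 1 Mb to either side lie 18 further protein-coding genes with enough counts. Of these, 17 had a positive log2 fold change and 7 passed the test, the median was 1.26, and 15 of the 18 lay above POLG. Without CE-26, 18 of 19 were higher, with a median of 1.28. In SUDHL6, 14 of 20 were higher with a median of 0.07, and 18 of the 20 lay above POLG, which fell.

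The stretch holds other mitochondrial genes. IDH2, the isocitrate dehydrogenase 2 of the matrix, had the largest log2 fold change of the neighbours in SUDHL16, 5.22 (6.25 without CE-26), and 0.83 in SUDHL6, where POLG fell. MRPS11, a protein of the small mitochondrial ribosomal subunit at chr15:88467453-88480776, rose from 14.4 ± 2.10 to 32.8 ± 6.49 CPM in SUDHL16 (log2 fold change 1.18, adjusted p = 0.0424, and 1.12 without CE-26). MRPL46, a protein of the large subunit and also a neighbour, had 0.93 (1.09 without CE-26). Across chromosome 15 as a whole, 48 of 535 tested genes (8.97%) were called higher in SUDHL16, against 3.20% of all genes, although the chromosome's median was −0.08. Without CE-26 it was 87 of 555 (15.7%), and the median was 0.18. Chromosome 15 was not alone in this. Chromosome 20 had a larger share in SUDHL16, 49 of 421 called higher (11.6%), with a median of 0.51. Without CE-26 its share was 92 of 437 (21.1%). Chromosome 17 had 60 of 1044 called higher (5.75%), and 130 of 1079 without CE-26. POLG also shares exon sequence with FANCI, a DNA repair gene on the opposite strand, over 458 bases or 5.53% of its exons. FANCI had log2 fold changes of 1.14 in SUDHL16 (0.86 without CE-26) and −0.01 in SUDHL6, and because no source states whether counting used strand, reads of the shared bases cannot be told apart.

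The neighbours of NRF1 on chromosome 7 (chr7:129611720-129757082) were mostly higher in SUDHL16 too, 16 of 19 with a median log2 fold change of 0.76 (17 of 19 and 0.65 without CE-26), but NRF1 itself was at 0.01. Across chromosome 7 as a whole, 63.6% of tested genes were higher with a median of 0.26 (68.8% and 0.31 without CE-26). Over all genes tested, 49.1% were higher (52.9% without CE-26). The neighbours of ESRRA on chromosome 11 had a median of 0.10, and 46 of 52 lay above ESRRA (0.23 and 49 without CE-26). For the remaining members the medians of the neighbours in SUDHL16 were between −0.41 and 0.16, and between −0.48 and 0.21 without CE-26.

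**Figure D3:**
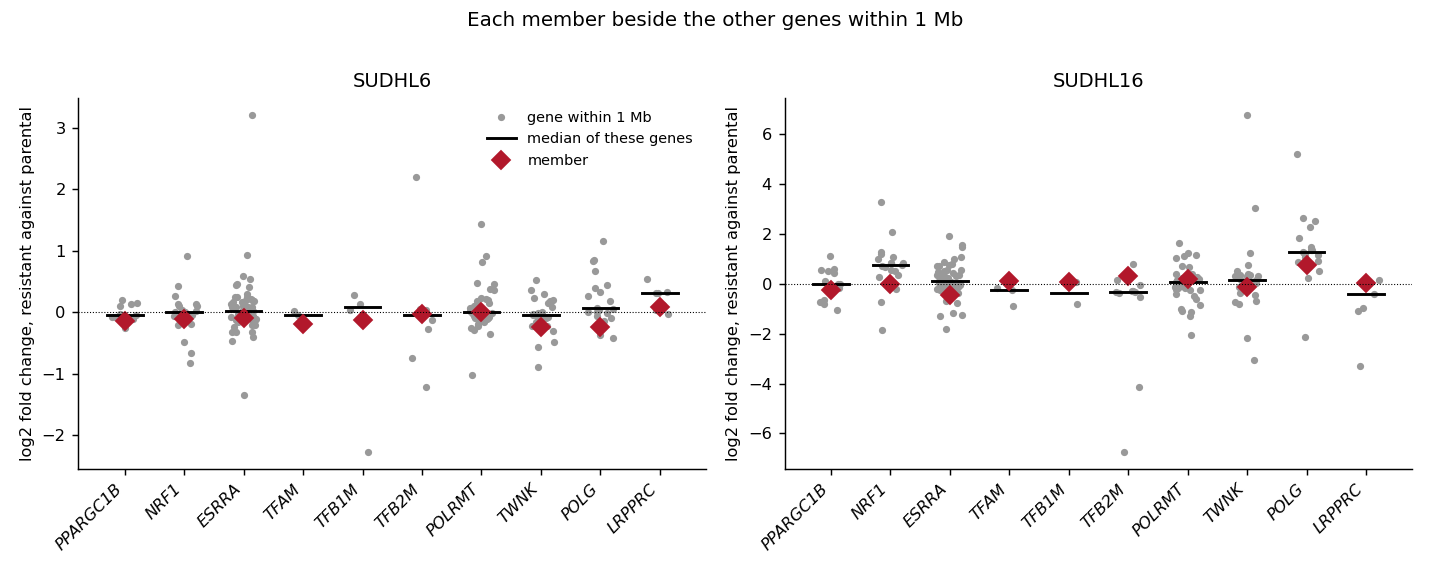
Log2 fold change, resistant against parental (vertical axis, scaled separately for each line), of each member (red diamond), the tested protein-coding genes within 1 Mb of it (grey points) and their median (black line). In SUDHL16 the genes around POLG lie mostly above 0, with a median of 1.26, and most lie above POLG itself at 0.74.

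Other members also share exon bases with genes on the opposite strand. TFB1M shares 30.7% of its exon bases with TIAM2, ESRRA 9.16% with TRMT112 and TWNK 3.6% with MRPL43. In SUDHL6, TIAM2 had a log2 fold change of 0.28 and MRPL43 of 0.15, both opposite in sign to the member, and TRMT112 of −0.11, the same sign as ESRRA. TFB1M also shares 14.4% of its exon bases with a lncRNA on its own strand (ENSG00000235381, at 4.88 CPM in SUDHL6-parental and 11.6 CPM in SUDHL16-parental cells), which counting by strand could not separate. The values of TFB1M are the most exposed to shared bases.

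Levels can be ranked within a line once divided by the length of the canonical transcript. In SUDHL6-parental cells LRPPRC led at 50.2 ± 1.10 CPM per kb, followed by ESRRA at 25.7 ± 0.527 and POLG at 23.1 ± 0.476 CPM per kb, and these did not overlap with each other. POLRMT, TWNK and TFAM, at 16, 15 and 15 CPM per kb, overlapped. TFB2M, NRF1, TFB1M and PPARGC1B followed at 12.8, 8.31, 6.97 and 2.78 CPM per kb without overlap. PPARGC1B, the coactivator, was the lowest of the 10 in all 4 groups. The order depends on the length used. With all annotated exon bases, which for LRPPRC are 34689 against 6603 in the canonical transcript, LRPPRC was at rank 7 of 10 in every group, at 9.55 CPM per kb in SUDHL6-parental cells, where ESRRA (18.8), TFAM (14.2) and TWNK (13.1) came first, and PPARGC1B stayed lowest in all 4 groups.

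In SUDHL16-parental cells LRPPRC, TFAM and ESRRA, at 25.4, 25.3 and 24.1 CPM per kb, overlapped at the top, and POLRMT, NRF1 and POLG, at 12.6, 10.3 and 9.97 CPM per kb, overlapped below them. Without CE-26 these were 29.2, 28.6 and 24.4 CPM per kb and 11.6, 11.7 and 10.4 CPM per kb. With all exon bases as the length, TFAM (24.1) and ESRRA (17.7) led and LRPPRC was at 4.83 CPM per kb. Per kb of the canonical transcript, POLG was at 16.7 CPM in SUDHL16-resistant cells, between ESRRA and POLRMT and overlapping with both. TWNK, at 4.58 CPM per kb in parental and 4.17 in resistant cells, was next to last in both.

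The proteins of these genes act on the transcripts of mtDNA itself, which the same libraries measured. In SUDHL6 the mRNAs were higher. All 13 mRNAs were higher in resistant cells and 11 passed the test (17.7% of all genes passed as higher), with a median log2 fold change of 0.14. None was called, and DESeq2 and limma voom called none either, with 10 and 11 passing, and 11 had an unadjusted p under 0.05. In 1 fit of all 12 libraries, where SUDHL6 takes on the wider spread of SUDHL16, none of the 11 passed, at adjusted p values of 1. The sum of the 13 mRNAs rose from 49709 ± 195 to 55969 ± 1460 CPM, a log2 difference of 0.17, with no overlap of the libraries and a two-sided exact permutation p of 0.1, the smallest that 3 libraries against 3 allow. POLG, TWNK and TFAM were thus lower in the same resistant libraries in which the mRNAs of mtDNA were higher.

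The increase was uneven along the genome. MT-RNR2, the large ribosomal RNA, had the largest difference of the 15 rRNAs and mRNAs. It read 5467, 5556 and 5407 CPM in parental and 7780, 7859 and 7583 CPM in resistant libraries, a log2 fold change of 0.50 (adjusted p = 6.99e-11). MT-RNR1, the small ribosomal RNA just upstream of it, had 0.17 (adjusted p = 3.05e-05). The mitochondrial rRNAs held 0.612% to 0.875% of the counts of SUDHL6 libraries, against 4.94% to 5.71% for the mRNAs. The study's methods do not say how rRNA was handled in this line, and its part in the rRNA values was not tested. MT-ND1, a complex I subunit and the first mRNA after the rRNAs, read 1760, 1753 and 1750 CPM in parental and 2316, 2342 and 2212 CPM in resistant libraries, a log2 fold change of 0.38 (adjusted p = 7.52e-09).

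The next gene, MT-ND2, also of complex I, had 0.05 and did not pass (adjusted p = 0.137). MT-CO1, the catalytic subunit of complex IV, had 0.24 (adjusted p = 4.77e-09) and MT-CO2, which takes electrons from cytochrome c, 0.14 (1.12e-05). Differences were also small from MT-ATP8 to MT-ND3. There the ATP synthase subunits MT-ATP8 and MT-ATP6 had 0.06 and 0.08, the complex IV subunit MT-CO3 0.07 and the complex I subunit MT-ND3 0.04, the last without passing (adjusted p = 0.219). MT-ATP8 passed at 0.0493, and did not pass without CE-7, CE-8, CE-9, CE-10 or CE-11 (0.0554 to 0.195). MT-ND4L and MT-ND4 of complex I followed with 0.14 and 0.16, and the far end of the genome was higher again, with MT-ND5 at 0.25 and MT-CYB of complex III at 0.26. Nuclear pseudogenes, near-copies that can share reads with these genes, were counted in SUDHL6 too. MTND2P28 went from 397 to 441 CPM (0.15, adjusted p = 3.49e-04) and MTATP6P1 from 763 to 804 CPM (0.08, 0.00185). MTCO1P12 went from 367 to 553 CPM (0.59, 4.37e-06) and was called. Their part in the mRNA values was not tested.

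MT-ND6, the 1 mRNA that is encoded in the light-strand transcript, read 1035, 998 and 1013 CPM in parental and 1282, 1258 and 1174 CPM in resistant libraries, a log2 fold change of 0.29 (adjusted p = 3.54e-06). How strand was treated in counting is not given, so reads from the opposite strand may be part of its count. The tRNAs, which are cut from the same precursors, were higher for 21 of 22, with 11 passing. Of the 8 tRNAs of the light-strand transcript 7 passed (median log2 fold change 0.42), and of the 14 of the heavy-strand transcript 4 passed (median 0.25). MT-TD, the aspartate tRNA, was the 1 called, with 2.40 ± 0.0977 and 3.68 ± 0.524 CPM. Where no strand was used in counting, a light-strand tRNA and the uncut transcript opposite it cannot be told apart.

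**Figure D4:**
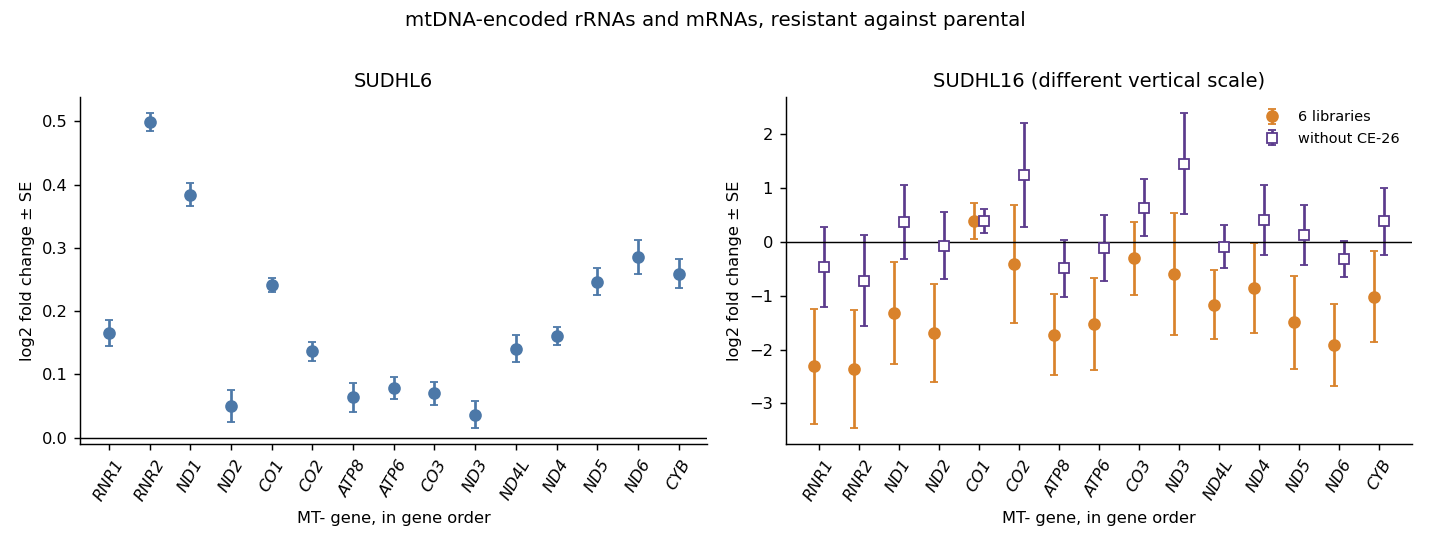
Log2 fold change ± SE, resistant against parental (vertical axis, scaled separately for each line), of the mtDNA-encoded rRNAs and mRNAs in gene order (horizontal axis). All SUDHL6 values lie above 0, the highest being MT-RNR2 at 0.50 and MT-ND1 at 0.38; in SUDHL16 most values lie below 0 with 6 libraries and shift upward without CE-26.

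In SUDHL16 no mtDNA mRNA passed with edgeR, with or without CE-26. With all libraries 2 of 13 had an unadjusted p under 0.05, DESeq2 called 1 (MT-ND6, −1.97, adjusted p = 0.0407) and limma voom none, and without CE-26 0 of 13 had an unadjusted p under 0.05. The median log2 fold change was −1.16, and 0.37 without CE-26. MT-ND1 read 60.8, 668 and 114 CPM in parental libraries and 105, 25.2 and 205 CPM in resistant ones. The level in CE-26 was the highest, and the resistant libraries spanned the whole range of the other 5.

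The make-up of the mtDNA mRNAs was not alike across the SUDHL16 libraries. MT-CO1 made up 22.8% to 24.3% of the summed mRNA reads in the 6 SUDHL6 libraries and 25.7% in CE-26. In the other 5 SUDHL16 libraries it made up 53.2% to 86.5%, the highest in CE-29. MT-CO1 read 3751, 3845 and 3873 CPM in parental and 4018, 5536 and 5410 CPM in resistant libraries, so its groups did not overlap (two-sided exact permutation p = 0.1 for 3 against 3), but edgeR gave 0.38 and an adjusted p of 0.605. The other 12 mRNAs together read 1504, 11087 and 2509 CPM in parental and 2344, 863 and 4755 CPM in resistant libraries, and overlapped.

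Reads were also counted on MTCO1P12, a nuclear pseudogene and near-copy of MT-CO1 that can share reads with it. Those reads came to 2.92% to 4.13% of the MT-CO1 reads in SUDHL6, 8.81% in CE-26 and 13.9% to 17.7% in the other SUDHL16 libraries. Within these other libraries they did not follow the share of MT-CO1. CE-29, with an MT-CO1 share of 86.5%, had 15.2%, and CE-25, with a share of 71.4%, had 17.7%. The part of the pseudogene in the MT-CO1 values was not tested. The ribosomal RNAs of mitochondria ranged from 485 CPM in CE-30 and 699 CPM in CE-29 to 21930 CPM in CE-26, and the total RNA kit of this line includes removal of rRNA, whose part was not tested either. Of the tRNAs, 15 were tested in SUDHL16 and none passed with edgeR or limma voom, 1 passed with DESeq2 and 1 had an unadjusted p under 0.05. MT-TE, the glutamate tRNA, had −2.86 (adjusted p = 0.146) and MT-TW, the tryptophan tRNA, −2.77 (0.291), and without CE-26 these were −0.84 and 0.09. A relation between POLG or TFAM and the mtDNA transcripts was not tested.

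**Figure D5:**
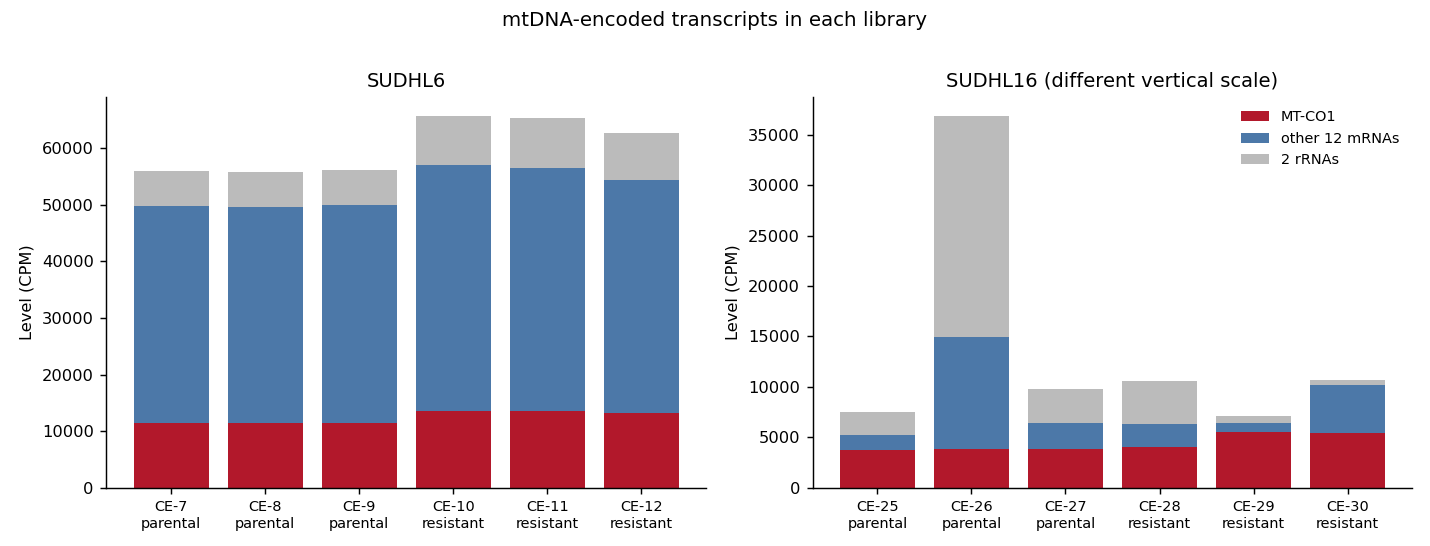
Summed CPM (vertical axis, scaled separately for each line) of MT-CO1, the other 12 mRNAs and the 2 rRNAs of mtDNA in each library. The 3 resistant SUDHL6 libraries stand above the parental ones in all 3 parts, while in SUDHL16 the MT-CO1 part is 3751 to 5536 CPM and the rest varies from library to library, highest in CE-26.

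The wider pathway was described by 107 genes in 7 lists, of which 101 were tested in SUDHL6 and 99 in SUDHL16. In SUDHL6, 36 of 101 (35.6%) passed, 15 higher and 21 lower, close to the 37.3% of all genes, and 1 was called against a background of 8.96%. In SUDHL16, 5 of 99 (5.05%) passed, all higher and all called, beside 5.30% of all genes. That count was 10 without CE-26, and 1 when CE-25, CE-27, CE-28, CE-29 or CE-30 was left out instead. The shares in both lines were thus near the background, and the lists are read gene by gene.

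Of the coactivators and nuclear factors, 7 of 15 tested passed in SUDHL6, 1 higher and 6 lower. The called gene was GABPB2, a beta subunit of the ETS factor NRF2/GABP, which rose from 10.4 ± 1.12 to 17.6 ± 0.457 CPM (log2 fold change 0.76, adjusted p = 9.70e-06). In SUDHL16 the 1 gene of 13 that passed was PPARD, a fatty-acid-sensing nuclear receptor, with 14.7, 7.58 and 13.8 CPM in parental libraries and a resistant mean of 48.6 ± 5.53 CPM (log2 fold change 1.98, adjusted p = 0.00730, and 1.78 without CE-26). PPARGC1A, the relative of PPARGC1B best known from muscle and brown fat, did not pass the filter on low counts in SUDHL16, where it was 0 to 4.82 CPM.

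Among genes of mtDNA replication, nucleoid and nucleotide supply, 8 of 17 passed in SUDHL6, 3 higher and 5 lower. LONP1, the matrix protease that degrades TFAM, fell with POLG and TWNK, from 152 ± 2.86 to 127 ± 2.78 CPM (log2 fold change −0.25, adjusted p = 7.77e-06). LIG3, the DNA ligase of mitochondria, fell from 58.6 ± 1.48 to 49.7 ± 1.61 CPM (−0.24, adjusted p = 1.42e-04). In SUDHL16, LONP1 was the 1 of 17 that passed and it rose, from 87.8 ± 2.47 to 184 ± 28.1 CPM (1.07, adjusted p = 0.0342, and 1.10 with 0.0188 without CE-26). LONP1 thus moved in opposite directions in the lines, as POLG did in its values.

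None of the 6 mitochondrial transcription accessory factors passed in either line, with edgeR, DESeq2 or limma voom. At an unadjusted p under 0.05 there were 2 in SUDHL6 and 0 in SUDHL16. The smallest adjusted p values in SUDHL6 were those of MTERF2 and MTERF3, factors of the mitochondrial termination factor family, at −0.17 (adjusted p = 0.0708) and −0.12 (0.0925). In SUDHL16 they were those of MTERF1, of the same family, at 0.68 (0.375) and MRPL12, a ribosomal protein also reported to bind POLRMT, at −0.27 (0.666). Without CE-26 these were 0.40 and −0.32.

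Of 28 genes for the processing, stability and decay of mitochondrial RNA, 8 passed in SUDHL6, 3 higher and 5 lower. GRSF1, an RNA-binding protein of the mitochondrial RNA granules, rose from 60.5 ± 3.28 to 77.9 ± 1.35 CPM (log2 fold change 0.36, adjusted p = 7.44e-06). PNPT1, the exonuclease of mitochondrial RNA decay, rose from 83.8 ± 1.83 to 98.7 ± 3.20 CPM (0.24, adjusted p = 5.87e-05). In SUDHL16 none of the 28 passed with edgeR or DESeq2, 3 passed with limma voom, and 5 had an unadjusted p under 0.05. The lowest adjusted p there belonged to PTCD1, which acts on mitochondrial RNAs, at 0.80 (0.114, and 0.0420 without CE-26), and TRMT10C, a subunit of the RNase P that cuts out tRNAs, at −0.67 (0.173, and −0.76 with 0.0751 without CE-26).

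Of 12 translation factors, 5 passed in SUDHL6, 3 higher and 2 lower. MTIF2, an initiation factor, rose from 66.6 ± 2.40 to 79.6 ± 0.332 CPM (log2 fold change 0.26, adjusted p = 2.56e-05), and MTFMT, which formylates the initiator tRNA, from 12.8 ± 0.555 to 15.5 ± 0.786 CPM (0.28, adjusted p = 0.00646). In SUDHL16 none passed with edgeR, DESeq2 or limma voom, and 1 had an unadjusted p under 0.05. TACO1, which activates translation of MT-CO1, was at 0.69 (adjusted p = 0.218) and GFM1, an elongation factor, at −0.39 (0.394). Without CE-26 these were 0.65 and −0.27.

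Textbook targets of the regulators moved both ways. Of 14 NRF1 targets, 2 rose and 2 fell in SUDHL6, the smallest adjusted p values being those of ALAS1, the first enzyme of haem synthesis, at 0.34 (2.06e-06) and MEF2A, a transcription factor, at −0.35 (8.44e-05). In SUDHL16, MEF2A rose from 76.4 ± 9.48 to 220.5 ± 48.5 CPM (1.53, adjusted p = 0.0152) and COX5A, a complex IV subunit, from 16.1 ± 2.83 to 52.3 ± 28.8 CPM (1.71, adjusted p = 0.0421). Without CE-26 the log2 fold changes were 1.44 and 1.85. Both genes, like POLG, are on chromosome 15.

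Of 9 tested targets of ERR alpha, 3 rose and 1 fell in SUDHL6. ACADM, a dehydrogenase of fatty acid oxidation, rose from 304 ± 3.86 to 406 ± 9.79 CPM (0.42, adjusted p = 1.34e-08), and VEGFA, an angiogenic growth factor, fell (−0.20, adjusted p = 4.42e-05). In SUDHL16, IDH3A, a subunit of the TCA cycle enzyme isocitrate dehydrogenase 3, rose from 38.4 ± 4.35 to 78.4 ± 8.96 CPM (1.03, adjusted p = 0.0318, and 0.95 without CE-26). It too is on chromosome 15, so that 3 of the 5 called pathway genes in SUDHL16 lie there.

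The proteins of the mitochondrial ribosome, which translates the 13 mRNAs, passed at the background share in SUDHL6, 29 of 78 (37.2%), 16 higher and 13 lower. The 1 called was MRPS33, of the small subunit, which fell from 27.2 ± 0.546 to 16.9 ± 0.680 CPM (log2 fold change −0.68, adjusted p = 1.05e-06). In SUDHL16 the 1 of 78 that passed was MRPS11, the neighbour of POLG named above.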

How the data were processed

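The authors trimmed the reads with Trim Galore and aligned them to GRCh38 with HISAT2, and their notes also name StringTie and edgeR. The deposited values are raw read counts per Ensembl gene identifier, 1 file per library, and how strand was treated in counting is not given in the sources used here. Of 60675 identifiers, 56558 matched GENCODE 44, which supplied symbols and coordinates.

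From these counts each line was fitted alone with edgeR 4.0.16 (R 4.3.3): filterByExpr, TMM scaling, quasi-likelihood test and Benjamini-Hochberg adjustment over all genes tested. A gene passed at an adjusted p under 0.05 and was called if it also changed at least 1.5-fold, as in the study. CPM are on the TMM scale, intervals are 95% and unadjusted, and errors are SD over 3 libraries unless named SE. Lines were set against each other by an interaction term over the 12 libraries. Sums were compared by exact permutation (scipy 1.17.1). The fitting code was tested on simulated data. Alternatives used DESeq2 1.42.0, limma 3.58.1 (voom with sample weights), other scalings and filters, and each library left out in turn. Summing the mtDNA mRNAs without MT-CO1 or with mitochondrial pseudogenes was added after seeing the data.

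The members and gene lists were chosen with earlier results of these data known. Named were all members and mtDNA mRNAs and rRNAs and, of each list, the called genes (at most 4) or otherwise the 2 with the smallest adjusted p. IDH2, MRPL46, the named pseudogenes, the gene overlaps and the summaries of chromosomes 7, 15, 17 and 20 were chosen after values were seen. None of the 66 pairs of libraries held identical counts. Levels per kb used the canonical transcript, and all annotated exon bases as a second length.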

Additional observations from a re-analysis of the deposited data

Results flagged for a closer look

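For 10 named genes the change from parental to resistant cells differed between the lines, by the interaction test of edgeR over all 12 libraries. Values are the log2 change in SUDHL16 minus that in SUDHL6, and kit and instrument differ with the line. The test used a single spread per gene for both lines, though their spreads differed. Over all genes, 7.16% of 19621 passed this test, and 14.0% without CE-26. Apart from POLG, these genes had been named for their adjusted p within a line of the same libraries. A difference between the lines is thus partly built in, and their number is no result about the lists. Among the members this was POLG, at 1.01 (adjusted p = 0.0275). In the pathway lists it was LONP1 at 1.36 (0.00144), MEF2A at 1.90 (0.00155), PPARD at 1.84 (0.00405), IDH3A at 1.10 (0.00944), GRSF1 at −0.73 (0.0215), COX5A at 1.81 (0.0228), PTCD1 at 0.86 (0.0267) and VEGFA at 3.36 (0.0464), and among the ribosomal proteins MRPS11 at 1.16 (0.0139). All 10 also passed without CE-26, with differences of 0.88 for POLG, 1.31 for LONP1, 1.75 for MEF2A, 1.61 for PPARD, 0.96 for IDH3A, −0.66 for GRSF1, 1.86 for COX5A, 0.92 for PTCD1, 4.28 for VEGFA and 1.04 for MRPS11. POLG, MEF2A, IDH3A, COX5A and MRPS11 lie on chromosome 15.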

How the results depend on the processing

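No paired analysis was possible because the labels carry no replicate numbers, and the numbers 1 to 3 used here follow sample order and pair nothing. The counts of called members and of called mtDNA mRNAs in SUDHL6 were 0 under every alternative run. Called members in SUDHL16 were 0, and 1 in the fit of all 12 libraries and with limma voom. Those alternatives passed 15.2% and 16.9% of all genes, against 5.30% in the fit of SUDHL16 alone. Called mtDNA mRNAs in SUDHL16 were 0, and 1 with DESeq2. Called pathway genes in SUDHL6 were 1, and 0 in the fit of all 12 libraries, with 1 to 2 when a library was left out (2 without CE-10). In SUDHL16 they were 5, and 13 with DESeq2, 3 with unscaled library totals, 20 in the fit of all 12 libraries, 19 with limma voom, and 1 to 10 when a library was left out (10 without CE-26, and 1 without each of the other 5 in turn). The member whose change differed between the lines, POLG, was lost with unscaled totals and with no filter on low counts (0 called members in each), and the count was 0 to 1 when a library was left out. The summed mtDNA mRNAs in SUDHL16, −0.09 on the log2 scale, became 0.083 with unscaled totals and −0.71 without MT-CO1, and ran from −0.39 to 0.36 with a library left out, turning positive without CE-26, CE-28 or CE-29. With no filter on low counts the median of all genes in SUDHL16 shifted by −1.16, with unscaled totals by 0.13. Among the alternatives run, POLG, TWNK, TFAM and LRPPRC in SUDHL6 stopped passing only in the fit of all 12 libraries (adjusted p of 1 each). In that fit the 11 mtDNA mRNAs that had passed no longer did. Of the single-gene values under alternatives, 955 kept their direction and side of the threshold, 55 stopped passing and 4 came to pass. A further 59 changed sign (4 in SUDHL6, 28 in SUDHL16 and 27 for the difference between the lines), none of them of a gene that had passed. With a library left out, log2 values in SUDHL6 that crossed 0 ran from −0.091 to 0.037 for TFB2M and from −0.031 to 0.026 for POLRMT. With DESeq2, sign changes in SUDHL16 gave NRF1 −0.010. With upper-quartile scaling, sign changes in SUDHL16 gave NRF1 −0.074, TFB1M −0.0094 and LRPPRC −0.066. With protein-coding genes only, sign changes in SUDHL16 gave NRF1 −0.043 and LRPPRC −0.034. With limma voom, sign changes in SUDHL16 gave NRF1 −0.13, TFB1M −0.16, LRPPRC −0.12, MT-ND3 0.29 and MT-CO3 0.038. With unscaled totals, sign changes in SUDHL16 gave MT-CO3 0.015. With a library left out, log2 values in SUDHL16 that crossed 0 ran from −0.15 to 0.14 for NRF1, from −0.030 to 0.31 for TFAM, from −0.27 to 0.29 for TFB1M, from −0.17 to 0.23 for LRPPRC, from −2.07 to 0.37 for MT-ND1, from −1.52 to 1.46 for MT-ND3, from −1.59 to 0.41 for MT-ND4, from −1.94 to 0.13 for MT-ND5, from −1.80 to 0.38 for MT-CYB, from −1.92 to 1.24 for MT-CO2 and from −1.07 to 0.63 for MT-CO3. With unscaled totals, sign changes for the difference between the lines gave PPARGC1B 0.058 and LRPPRC 0.012. With no filter, sign changes for the difference between the lines gave PPARGC1B 0.088 and LRPPRC 0.048. With limma voom, sign changes for the difference between the lines gave PPARGC1B 0.093, NRF1 −0.044, TFB1M −0.059, TWNK −0.0070 and MT-ND3 0.18. With upper-quartile scaling, sign changes for the difference between the lines gave TWNK −0.0093. With a library left out, log2 values for the difference between the lines that crossed 0 ran from −0.12 to 0.11 for PPARGC1B, from −0.071 to 0.31 for NRF1, from −0.13 to 0.45 for TFB1M, from −0.12 to 0.29 for TWNK, from −0.29 to 0.23 for LRPPRC, from −1.40 to 1.39 for MT-ND3, from −1.62 to 0.21 for MT-ND4, from −1.92 to 0.090 for MT-CYB, from −1.91 to 1.08 for MT-CO2 and from −1.02 to 0.53 for MT-CO3. The causes were not tested. TFB2M in CE-26 rests on 17 reads, which limits it.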
